A study of Mus musculus with 20 samples.

Results

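The miR-290 and miR-302 clusters are groups of miRNA hairpins that are transcribed together and are known from mouse embryonic stem cells, and their signal was followed here in the ileal epithelium. The members were defined by name, with earlier results of these data known. Every probe of the array whose miRNA name begins with miR-290, miR-291a, miR-291b, miR-292, miR-293, miR-294, miR-295 or miR-302 was taken, both arms of each hairpin included. This gave 21 probes, 14 from the miR-290 cluster and 7 from the miR-302 cluster, beside 634 probes of the array for other miRNAs. In the older names of the array, an asterisk marks the arm of a hairpin that was held to be the minor one.

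The epithelium of the ileum of wild type C57BL/6J male mice, 4 months of age, had been detached in 5 successive fractions with a chelating buffer. All 5 groups share this strain, genotype, sex, age and tissue and differ by label in the fraction alone. V0 holds cells from the tip of the villus, V1, V2 and V3 follow downwards, and C1 holds cells of the crypt, where the epithelium divides. Each fraction was measured on 4 Illumina miRNA bead arrays, 20 in all. The number that opens the title of an array was taken as its slide. The fractions are defined by the order in which cells came off and not by sorting, so each can hold other cells beside the enterocytes. The submitters name 4 mice without saying which mouse each array came from, so the p-values measure the spread between these arrays.

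A mature miRNA guides a silencing complex to messenger RNAs through its seed, the bases that follow its first base. Embryonic stem cells make the miR-290 cluster in large amounts in the mouse, and the miR-302 cluster is made in the epiblast and in human pluripotent cells. Their 3′ arms with the AAGUGC core favour rapid passage through the cell cycle and can promote reprogramming of somatic cells. Differentiating cells silence both clusters and gain let-7 miRNAs. In an adult tissue these clusters are usually regarded as silent or nearly so.

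Of the 21 members, 19 matched a mature sequence of RefSeq (build GRCm38.p6) by name, and miR-292-3p and miR-302a are named only. The 13 matched miRNAs of the miR-290 cluster lie on the plus strand of chromosome 7, at chr7:3218639-3220837, a span of 2199 bases that overlaps the annotated non-coding gene D7Ertd143e and lies within the interval of Nlrp12 apart from its first bases. The 6 of the miR-302 cluster lie at chr3:127545238-127545687, a span of 450 bases inside the interval of Larp7 and of the non-coding gene Gm51018. The 3′ arms are shown because their shared seed defines the family. Each is written 5′ to 3′ with the seed, bases 2 to 8, in capitals.
miR-291a-3p: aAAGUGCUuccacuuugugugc
miR-294: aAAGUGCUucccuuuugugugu
miR-295: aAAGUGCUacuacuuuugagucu
miR-302b: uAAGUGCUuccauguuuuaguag
miR-302d: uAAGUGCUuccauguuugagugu
miR-302c: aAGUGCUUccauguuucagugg
miR-291b-3p: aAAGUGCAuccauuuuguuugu
miR-290-3p: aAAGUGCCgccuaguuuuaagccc
miR-293: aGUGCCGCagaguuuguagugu

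miR-291a-3p, miR-294, miR-295, miR-302b and miR-302d share 1 seed. In miR-302c the RefSeq form starts 1 base later, so that AAGUGC begins at base 1 and the window of bases 2 to 8 is shifted against the others. The core AAGUGC stood within the first 8 bases of 8 of the 9 matched 3′ arms and of 0 of the 10 matched 5′ arms, against 18 of the 1679 mature miRNAs in the RefSeq table (1.07%). miR-293 is the 3′ arm without it. miR-302b and miR-302d have a common run of 17 bases, and each shares 16 bases with miR-302c. How far the array separates such close sequences was not tested.

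The 5′ arms have other seeds. Those that were detected most and a nearly identical pair are shown in the same way.
miR-293*: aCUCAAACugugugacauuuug
miR-295*: aCUCAAAUguggggcacacuuc
miR-291a-5p: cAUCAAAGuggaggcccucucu
miR-291b-5p: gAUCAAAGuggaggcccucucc

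The seed of miR-293* is also that of miR-290-5p and miR-292-5p. miR-291a-5p and miR-291b-5p share their seed and an unbroken run of 20 bases.

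The first question was which members could be measured in this tissue at all. Detection was taken from the p-value that the array software gave each probe on each array, with a limit of 0.01. miR-291a-3p, miR-293, miR-295* and miR-302c were detected on all 20 arrays. miR-293* (19 arrays), miR-302b (18), miR-302d (15) and miR-302a (14) were each detected on all 4 arrays of at least 1 fraction. miR-294, whose seed is that of miR-302b, was detected on 0 of 20 arrays. In all, 8 of 21 members (38.1%) were detected on all 4 arrays of some fraction, against 384 (58.6%) of all probes on the array, and 211 of the 420 pairs of a member and an array were detected (50.2%), against 62.2% of all pairs of a probe and an array. Signal near the detection limit can come from background or from related sequences, which a detection call does not separate.

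The arms of the clusters differed in detection. The 3′ arms of the miR-302 cluster were detected in 67 of 80 pairs (83.8%), and its 5′ arms, miR-302a*, miR-302b* and miR-302c*, in 5 of 60 (8.33%). In the miR-290 cluster the 5′ arms were detected in 74 of 140 pairs (52.9%) and the 3′ arms in 65 of 140 (46.4%). Both arms of the miR-293 hairpin were seen together on 19 arrays. For miR-295 the 5′ arm was seen on all 20 arrays and the 3′ arm on 5 of these, and for miR-294 the 5′ arm was seen on 10 arrays and the 3′ arm on none. The pairs of 1 member are not independent, and these shares carry no test.

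The number of members detected on an array did not follow the order of the fractions. It was 9 to 14 in C1 (median 10), 8 to 11 in V3 (9.5), 10 to 11 in V2 (10.5), 9 to 13 in V1 (11) and 9 to 14 in V0 (10.5). The number of all probes detected was lower on the crypt arrays, with 306 to 387 in C1 (median 377.0) and 386 to 461 in V0 (median 433.5).

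**Figure D1:**
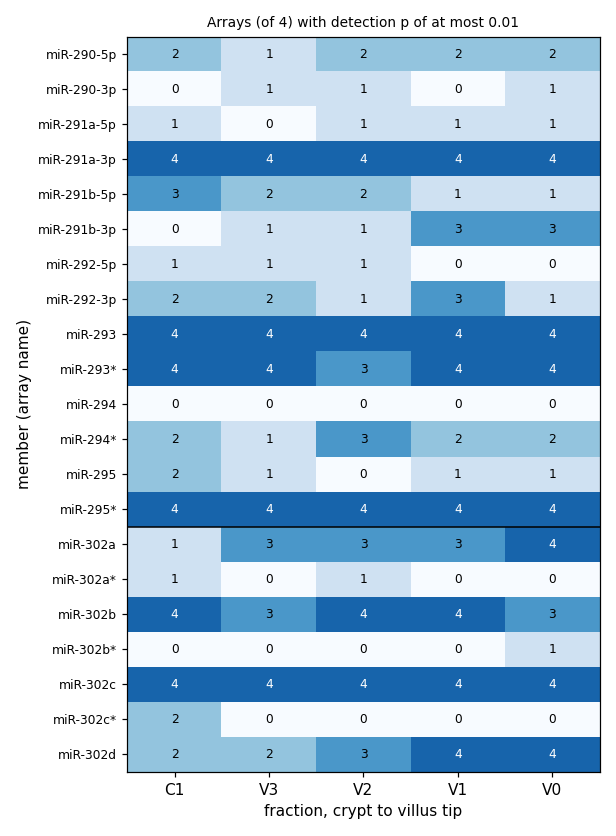
Number of arrays, of 4 in each fraction, on which each of the 21 members had a detection p of at most 0.01, with fractions ordered from the crypt (C1) to the villus tip (V0) and a line between the miR-290 and the miR-302 members. Rows of 4 across all fractions stand for miR-291a-3p, miR-293, miR-295* and miR-302c, and miR-294 has 0 throughout.

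Levels are given below as log2 of the quantile-normalized signal, in array order within a fraction. Levels of different probes cannot be set against each other. In these bulk fractions, fewer cells that make a miRNA and less of it per cell cannot be told apart.

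miR-302b, an AAGUGC-seed member, is known to hold back cell cycle inhibitors in stem cells. It is the member that the study singled out on these same arrays, so its direction here is not independent evidence. The study could not back its lower villus signal by RT-qPCR and named low expression as the probable reason. In C1 the signal of miR-302b was 11.06, 11.04, 10.32 and 10.35. In V2 it was 9.40, 9.42, 9.73 and 9.54, in V1 9.43, 9.36, 10.01 and 9.74, and in V0 9.90, 9.33, 9.66 and 9.98. All 12 arrays of V0, V1 and V2 lay below all 4 of C1. V3 broke that order on 1 array, with 10.04, 9.88, 9.33 and 12.47. The third V3 array and the second V0 array did not detect it.

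On the log2 scale, miR-302b differed from C1 by -0.98 in V0 (SE 0.51), -1.06 in V1 (SE 0.51), -1.17 in V2 (SE 0.52) and -0.26 in V3 (SE 0.52). The limma adjusted p-values were 0.296, 0.202, 0.212 and 0.904. None passed the threshold used throughout, a Benjamini-Hochberg adjusted p of at most 0.05 over all probes tested and at least a 2-fold difference. V3 replicate 4 had the fewest detected probes before normalization of all 20 arrays (258), and since all arrays share 1 estimate of the spread it also bears on the other fractions. Without that array miR-302b passed in V1 (-1.06, SE 0.30, limma adjusted p = 0.0427). Without both that array and C1 replicate 4, the array with the next fewest (285), it passed in V1 (-1.17, limma adjusted p = 0.0439) and in V2 (-1.29, limma adjusted p = 0.0234), while V0 had an adjusted p of 0.0513. This second setting was chosen after the data were seen.

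miR-302c was detected on every array. C1 had 10.74, 10.77, 10.12 and 12.80, and V3 had 9.78, 10.72, 9.83 and 12.51. V2 had 9.66, 9.61, 9.96 and 9.44, V1 had 9.71, 9.68, 10.14 and 11.09, and V0 had 10.67, 9.54, 9.29 and 9.63. The V2 arrays lay below those of C1, and the other fractions overlapped with it. The values of 12.80 and 12.51 come from C1 replicate 4 and V3 replicate 4. The difference from C1 was -1.44 in V2 (SE 0.63, unadjusted p = 0.0341, limma adjusted p = 0.212) and -1.32 in V0 (SE 0.62, unadjusted p = 0.0468, limma adjusted p = 0.287). Without C1 replicate 4 the difference was -0.88 in V2 and -0.76 in V0.

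miR-302d, with the seed of miR-302b, was detected on 2 C1 arrays, where it read 10.72 and 10.40, and read 9.38 and 9.53 on the others. In V1 its values were 9.48, 9.41, 9.63 and 9.42, and in V0 10.34, 9.50, 9.38 and 9.74. Both fractions overlapped with C1. Its values were 9.57, 9.49, 9.45 and 10.36 in V2 and 10.16, 9.61, 9.40 and 9.42 in V3. The difference from C1 was -0.27 in V0 (SE 0.39) and -0.52 in V1 (SE 0.39).

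miR-302a stayed close to the detection limit. C1 had 9.44, 10.19, 9.12 and 8.86, with only the second array detected. V0, the fraction that detected it on all 4 arrays, had 9.62, 9.45, 9.34 and 9.34, so that detection was more frequent in V0 while the mean signal differed from C1 by 0.04 (SE 0.34). V1 had 9.45, 9.37, 9.11 and 9.38, V2 had 9.59, 9.58, 9.06 and 9.43, and V3 had 9.63, 9.68, 9.13 and 9.67. The third array of each of these 3 fractions was the one that did not detect it. Over all probes, the lowest signal that counted as detected was 9.46 to 9.97 on the C1 arrays and 9.17 to 9.46 on those of V0.

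miR-291a-3p is an AAGUGC-seed member of the miR-290 cluster. Its C1 arrays read 11.25, 11.26, 10.74 and 11.16. V2 read 10.18, 10.13, 10.36 and 9.61, V1 read 9.91, 9.74, 10.48 and 10.00, and V0 read 11.08, 9.85, 9.75 and 10.00. V1 and V2 lay below C1, as did 3 of the 4 V0 arrays. V3 lay on both sides of C1, with 10.06 and 10.14 on slide 3 and 13.71 and 11.86 on slide 2. The differences from C1 were -0.93 in V0 (SE 0.61), -1.07 in V1 (SE 0.61) and -1.03 in V2 (SE 0.62), with limma adjusted p-values of 0.344, 0.241 and 0.327. In V3 the difference was 0.34 (SE 0.61), and without V3 replicate 3 it was -0.41.

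miR-293 carries no AAGUGC core. In C1 it read 12.47, 12.21, 11.84 and 12.10. In V1 it read 11.63, 10.70, 11.54 and 11.25, below every C1 array. V0 had 12.83, 11.38, 11.23 and 10.97, V2 had 11.63, 11.35, 12.77 and 10.58, and V3 had 11.34, 10.86, 11.89 and 13.80. In each of V0, V2 and V3, 1 array stood above all of C1. The difference was -0.88 in V1 (SE 0.59, limma adjusted p = 0.306) and between -0.57 and -0.19 in the other 3 fractions.

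miR-293*, the 5′ arm of the same hairpin, read 10.98, 10.52, 10.24 and 12.63 in C1 and 9.90, 9.62, 10.21 and 9.46 in V1. These groups did not overlap, by a gap of 0.03 between 10.21 and 10.24. V0 spread from 9.24 to 12.31 (12.31, 9.75, 9.24 and 11.66), V2 from 9.32 to 12.47 (10.33, 10.08, 12.47 and 9.32), and V3 read 9.62, 9.53, 10.02 and 11.72. The difference in V1 was -1.30 (SE 0.77, limma adjusted p = 0.254).

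miR-295*, also a 5′ arm, read 11.66, 11.51, 10.90 and 14.23 in C1 and 10.35, 9.91, 10.61 and 9.90 in V1. The groups did not overlap, and the difference was -1.88 (SE 0.85, unadjusted p = 0.0399, limma adjusted p = 0.191). V0 read 11.86, 10.25, 9.81 and 10.09, V2 read 10.83, 10.67, 12.88 and 9.63, and V3 read 10.07, 9.65, 10.29 and 13.40. C1 replicate 4 (14.23) and V3 replicate 4 (13.40) again stood above the rest of their fractions, and without C1 replicate 4 the difference in V1 was -1.16.

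**Figure D2:**
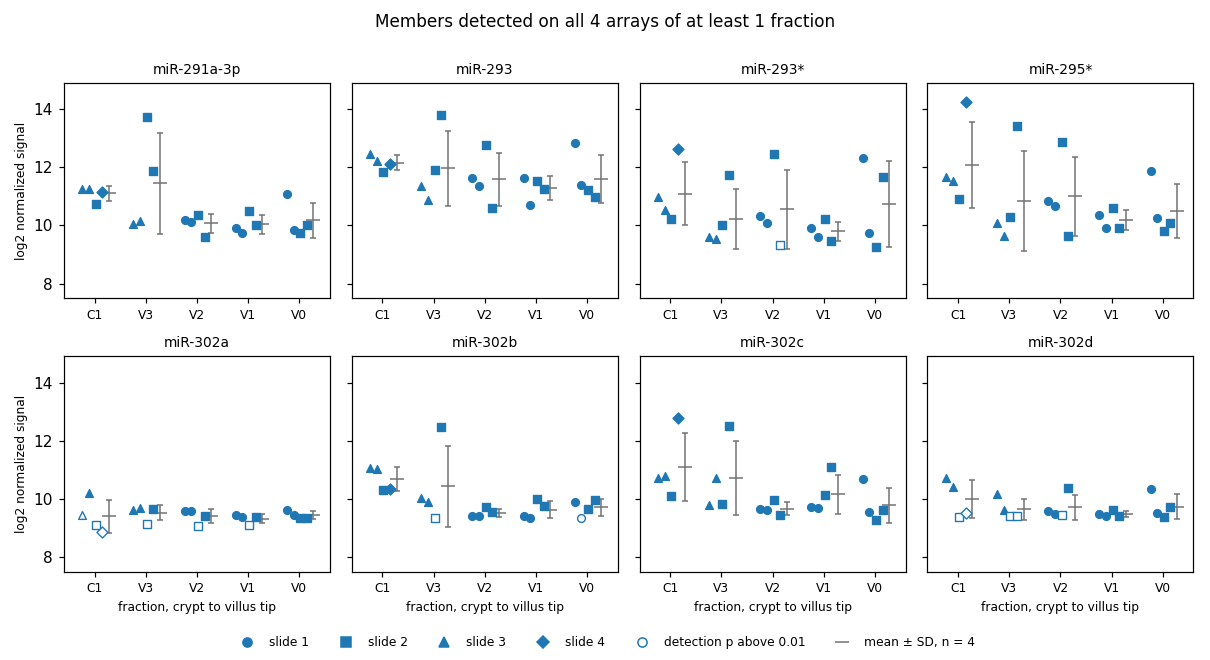
Log2 normalized signal of the 8 members that were detected on all 4 arrays of at least 1 fraction, with 1 point per array (filled: detection p of at most 0.01, marker shape: slide) and the mean ± SD of 4 arrays beside them. For miR-302b the C1 points lie between 10.32 and 11.06, above all points of V2, V1 and V0, and 1 V3 point lies at 12.47.

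Fractions were compared with C1 over probes detected on all 4 arrays of either fraction. No member passed in any fraction by limma, of 8 tested in V0, 7 in V1, 6 in V2 and 6 in V3. Over the whole array 0.623% of the probes tested passed in V0, 0.578% in V1, 0.645% in V2 and 0.361% in V3, so a list of this size would hold no call at the rate of the array. An exact two-sided rank-sum test passed no member either, but with 4 arrays against 4 its smallest p is 0.0286, and 57.1% of the probes tested would have to reach it before any could pass. Lower at an unadjusted p under 0.05 were 1 of 8 members in V0 (8.72% of all probes), 1 of 7 in V1 (13.6%), 2 of 6 in V2 (13.5%) and 0 of 6 in V3 (3.61%), namely miR-302c in V0, miR-295* in V1 and miR-302b and miR-302c in V2.

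Most of the tested members nevertheless had a lower mean than in C1. The estimate was below 0 for 7 of 8 in V0 (median -0.74), 7 of 7 in V1 (median -1.06), 6 of 6 in V2 (median -1.05) and 5 of 6 in V3 (median -0.33), while the medians of all probes tested lay between -0.09 and -0.00. Other probes of similar signal lay the same way. Of all probes whose mean signal lay in the same range as that of the members, 71.1% were lower in V0, 68.6% in V1, 66.9% in V2 and 65.5% in V3, with medians of -0.56, -0.63, -0.73 and -0.45.

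Every array of the villus fraction lay below every C1 array for 1 of 8 members in V0, miR-302b, where the share over all probes tested was 3.12%. In V1 this held for 5 of 7, miR-291a-3p, miR-293, miR-293*, miR-295* and miR-302b, against 17.1% of all probes. For V2 the count was 3 of 6, miR-291a-3p, miR-302b and miR-302c, against 12.6%, and for V3 it was 0 of 6, against 0.361%. A probe tested because all C1 arrays detected it is favoured in this direction.

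**Figure D3:**
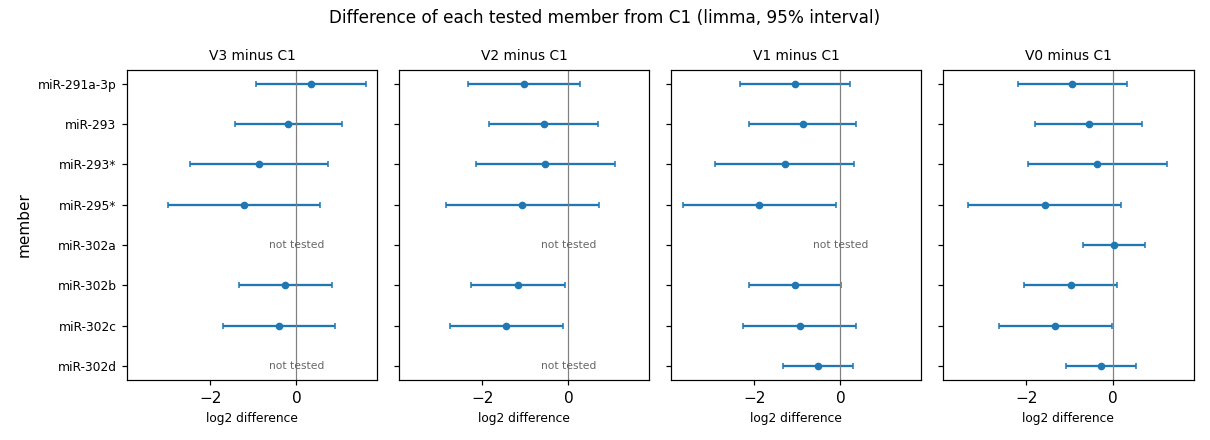
Log2 difference of each tested member from C1 in V3, V2, V1 and V0 with its 95% interval from the limma fit, all 20 arrays sharing 1 spread. Most points lie below 0, and the interval excludes 0 for miR-302c in V0, miR-295* in V1 and miR-302b and miR-302c in V2, before any adjustment.

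A straight line over the steps from C1 to V0 was fitted next. It passed for 0 of 8 members and for 0.0% of the 384 probes tested. Unadjusted, 3 of 8 had a p under 0.05, against 24.2% of all probes. These were miR-302b (-0.27 per step, SE 0.11), miR-291a-3p (-0.33, SE 0.14) and miR-302c (-0.32, SE 0.14), each with a limma adjusted p of 0.184. A test for any difference among the 5 fractions passed 0 of 8 members (0.26% of all probes), and 0 of 8 had an unadjusted p under 0.05 (8.59% of all probes).

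The sign of these differences depended on the normalization. Before it, the median signal of the whole array was 319 to 841 units in C1 and 622 to 1752 units in V0, and miR-302b itself read 361 to 1000 units in C1, 522 to 1080 in V3, 564 to 1183 in V2, 716 to 1240 in V1 and 643 to 1539 in V0. On that scale the mean of miR-302b was higher than in C1 by 0.46 in V0, 0.33 in V1, 0.12 in V2 and 0.07 in V3. All 8 members tested in V0 were higher, as were 6 of 7 in V1, 6 of 6 in V2 and 4 of 6 in V3. The median of all probes tested had itself moved up by 0.95, 1.05, 0.93 and 0.18 in V0, V1, V2 and V3. Relative to that shift, 6 of 8 members were lower in V0, 7 of 7 in V1, 6 of 6 in V2 and 3 of 6 in V3. For miR-302b the distance to the shift was -0.49 in V0, -0.72 in V1, -0.80 in V2 and -0.11 in V3.

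Against the median of its own array, the signal of miR-302b before normalization was higher by 0.65, 0.68, 0.25 and 0.18 in C1. The distance was -0.43, -0.47, -0.06 and -0.36 in V2, -0.44, -0.43, 0.13 and -0.04 in V1, and 0.05, -0.63, -0.19 and 0.18 in V0. V3 had 0.18, 0.08, -0.52 and 0.86. The C1 arrays therefore stayed above those of V1 and V2, and in V0 the gap closed to less than 0.01. With the number of detected probes of each array as a covariate, the normalized difference of miR-302b was -0.46 in V0, -0.45 in V1, -0.71 in V2 and -0.01 in V3, with limma adjusted p-values between 0.739 and 0.986. The covariate was not planned beforehand.

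**Figure D4:**
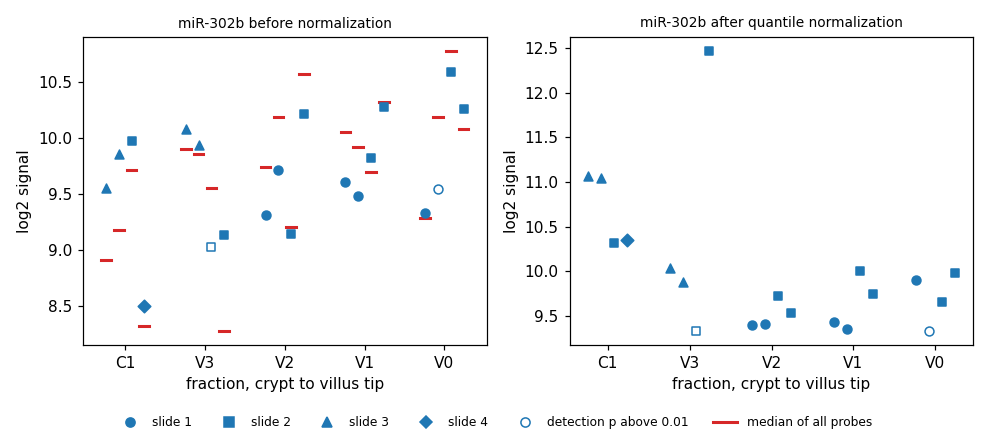
Log2 signal of miR-302b on each array before normalization (left, with the median of all probes of that array as a red bar) and after quantile normalization (right), marker shape giving the slide and open points a detection p above 0.01. Before normalization the C1 points span 361 to 1000 units and V0 643 to 1539 units, and after it the C1 points lie above those of V2, V1 and V0.

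By their titles the arrays fall on 4 slides, which do not hold the fractions evenly. C1 lay on slides 2 (1 array), 3 (2 arrays) and 4 (1 array), and slide 2 is the one with arrays of every fraction. On slide 2 alone miR-302b differed from C1 by -0.50 in V0, -0.44 in V1, -0.69 in V2 and 0.58 in V3. These values rest on 1 C1 array, which is assumed to vary like the other fractions, and are given without a test. Slide 3 holds 2 arrays each of V3 and C1. There 5 of 6 members were lower in V3 past the threshold, against 21.3% of all probes tested. miR-302b differed by -1.09 (SE 0.14, limma adjusted p = 0.0227), miR-291a-3p by -1.15 (SE 0.13, limma adjusted p = 0.0219), miR-295* by -1.73 (SE 0.22, limma adjusted p = 0.0227), miR-293 by -1.24 (SE 0.25, limma adjusted p = 0.0427) and miR-293* by -1.18 (SE 0.22, limma adjusted p = 0.0415). miR-302c was the exception, with -0.51 (SE 0.39, limma adjusted p = 0.404). With 2 arrays against 2, this compares those 4 arrays, and the setting was not planned beforehand. Before normalization both slide 3 V3 arrays were above both C1 arrays for miR-302b (10.08 and 9.93 against 9.55 and 9.86). The same held for miR-302c and for miR-291a-3p (10.10 and 10.18 against 9.68 and 10.02). The V3 and C1 ranges of miR-293, miR-293* and miR-295* overlapped on that scale. The median of all probes on these arrays was 953 and 924 units in V3 and 480 and 578 in C1. On slide 2 the normalized V3 mean of all 6 tested members was above the 1 C1 array. For miR-291a-3p and miR-293 both V3 arrays were above it. For the others only V3 replicate 4 was. There V3 replicate 3 read below C1 replicate 3, with 9.33 against 10.32 for miR-302b and 9.83 against 10.12 for miR-302c. The values were 10.29 against 10.90 for miR-295* and 10.02 against 10.24 for miR-293*.

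The other 13 members were not detected on all 4 arrays of any fraction. miR-291b-3p, a 3′ arm with the AAGUGC core, was detected on 0 of 4 C1 arrays (9.10, 8.90, 8.86 and 8.76). It was detected on 3 of 4 arrays in V0 (13.01, 10.76 and 10.19, with 8.86 on the first array) and on 3 of 4 in V1 (10.11, 11.84 and 10.77, with 8.80 on the fourth). This is the opposite order to that of miR-302b. The V0 mean was at least 2.14-fold and the V1 mean at least 1.71-fold above C1, taking on each C1 array the higher of the probe's own signal and the lowest signal that was detected there. Without its brightest array, replicate 2 in both fractions, the bound was 1.26-fold in V0 and 1.22-fold in V1 (a setting chosen after seeing the data). V2 and V3 each had 1 detected array, at 9.99 and 10.53. It entered no test of V0 or V1 against C1 over detected probes, and no member passed when every probe of the array was tested.

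miR-302c*, a 5′ arm, was detected in C1 alone, on 2 of 4 arrays, at 11.99 and 10.18. Its other 18 arrays read 8.75 to 9.26. The mean in C1 was at least 1.64-fold to 1.86-fold above each villus fraction by the same bound, and it rests on these 2 arrays. Before normalization these arrays, C1 replicates 3 and 4, read 3793 and 350 units, and those of V0 461 to 656. The bound was not computed without the brighter array.

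miR-290-3p, miR-292-5p, miR-302a* and miR-302b* showed single arrays with strong signal among arrays without detection. miR-302a* read 14.37 on C1 replicate 1 and 9.13 to 9.14 on the other C1 arrays. miR-290-3p read 14.12 on V0 replicate 1 and 8.66 to 8.73 on the rest of V0. For miR-292-5p, C1 replicate 3 read 13.27 and the other C1 arrays 9.02 to 9.18, and for miR-302b*, V0 replicate 4 read 12.62 and the other V0 arrays 8.86 to 9.02. Before normalization these 4 signals were 14702, 14429, 14716 and 8446 units.

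miR-291a-5p and miR-291b-5p, the pair with 20 common bases, were detected together on 2 arrays, miR-291b-5p alone on 7 and miR-291a-5p alone on 2. miR-291b-5p read 12.53 on C1 replicate 4, 12.62 on V2 replicate 3 and 11.10 on V1 replicate 1, where miR-291a-5p read 8.89, 9.11 and 9.16. On the arrays just named a shared run of bases did not go with a shared signal. On V2 replicate 4 both were detected, miR-291a-5p at 10.06, its highest value, and miR-291b-5p at 10.34.

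The remaining members were detected on 0 to 10 arrays. miR-290-5p (9 arrays detected) read 9.02 to 9.73, miR-295 (5 arrays) 8.93 to 9.68, miR-292-3p (9 arrays) 8.91 to 10.31 and miR-294 (0 arrays) 8.76 to 9.52. miR-294* (10 arrays) read 8.87 to 11.89, with its 2 highest values on V1 replicate 1 and V2 replicate 3.

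**Figure D5:**
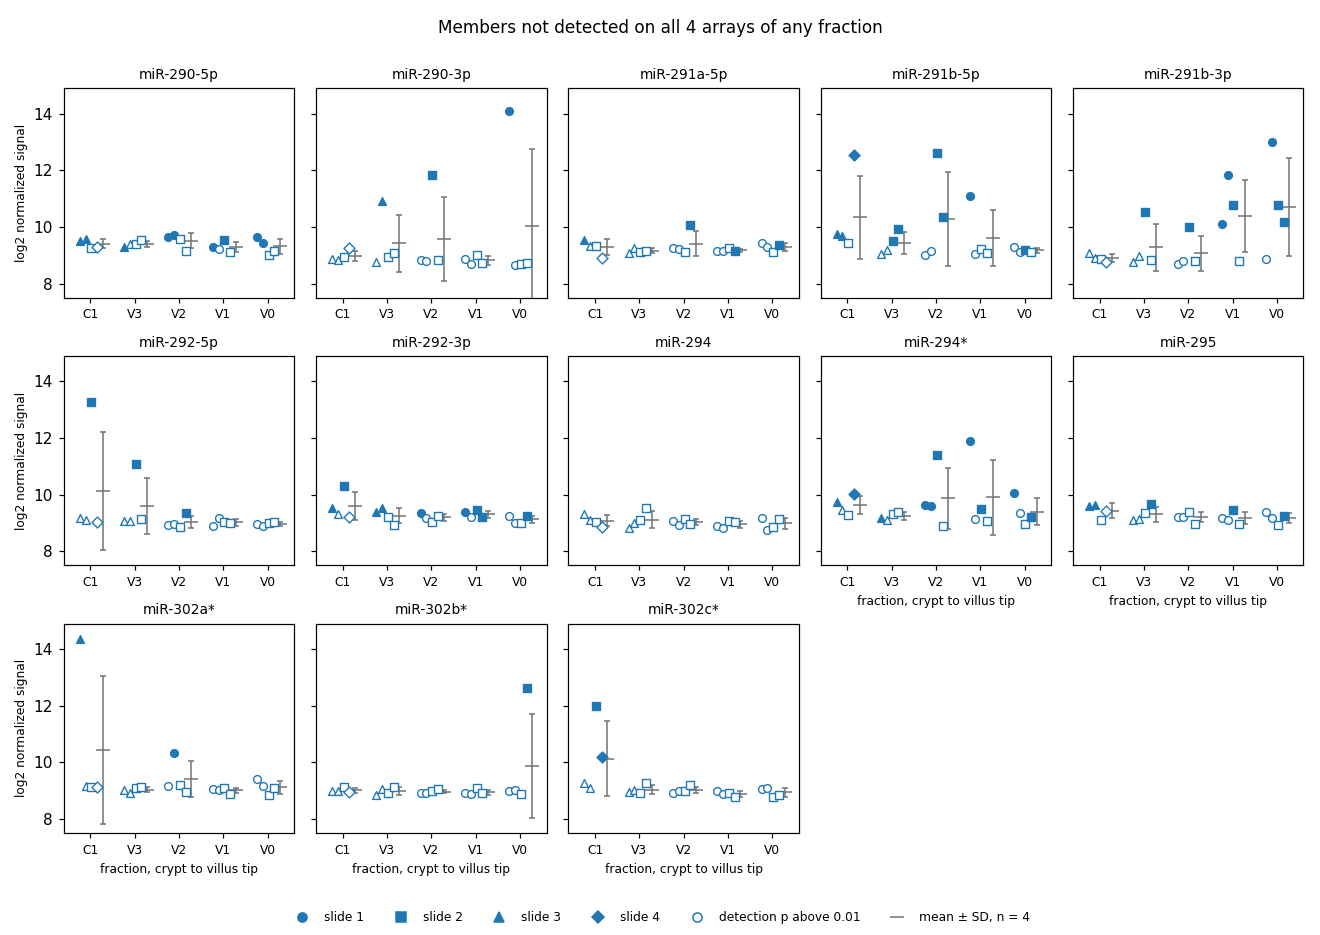
Log2 normalized signal of the 13 members that were not detected on all 4 arrays of any fraction, 1 point per array (filled: detection p of at most 0.01, marker shape: slide), with the mean ± SD of 4 arrays. Isolated filled points between 12.62 and 14.37 stand above open points near 9 for miR-290-3p, miR-292-5p, miR-302a* and miR-302b*, and miR-291b-3p has filled points in V1 and V0 and none in C1.

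Single arrays of this kind were counted over all members, by a rule set after the values were seen. In 33 of the 105 groups of a member and a fraction (31.4%), 1 array stood at least 2-fold above the other 3, against 24.3% of the 3275 groups of all probes. These 33 groups came from 14 members. V2 replicate 3 (7 members), V0 replicate 1 (5), V3 replicate 4 (5) and C1 replicate 4 (4) accounted for 21 of them, and each was the array with the fewest detected probes before normalization in its fraction (344, 326, 258 and 285). V1 replicate 3, with the fewest in V1 (388), accounted for 0. The part of array depth in these values was not tested.

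miRNAs related to the clusters were taken as lists. miR-367, which is processed from the same transcript as the miR-302 members, was detected on 0 of 20 arrays, with fraction means of 8.73 to 8.97. The 6 probes of the miR-17 family with a closely related seed (miR-17, miR-20a, miR-20b, miR-93, miR-106a and miR-106b), which act in dividing cells, were all tested in V0, V1 and V2, and 0 passed in either direction. Their medians against C1 were -0.02 in V0, 0.40 in V1, 0.54 in V2 and, over 5 probes, 0.16 in V3. Of the 14 probes for let-7 and other miRNAs known to act against the pluripotent state, 11 were tested in V0, and 0 passed in either direction. Of these, 9 were higher and 2 lower, with a median of 0.79, and in V3 6 were higher and 5 lower, with a median of 0.01. The median of all tested probes was -0.04 in V0 and -0.09 in V3.

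Markers of cell types were checked beside these values. Of 8 probes for epithelial miRNAs (miR-192, miR-194, miR-215 and the miR-200 family), 5 were detected on all 20 arrays, and their summed signal was 109425 to 311863 units in C1 and 297366 to 338394 in V0. The 5 stromal probes were those of miR-143, miR-145, miR-199a-5p and miR-214 and a probe named for both miR-199a-3p and miR-199b. Their summed signal was 74442 to 123162 units in C1 and 116196 to 180755 in V0. That of 4 leukocyte probes was 8442 to 57668 units in C1 and 52744 to 71495 in V0. Between these ends the stromal sum was 52634 to 71460 units in V3, 67080 to 76459 in V2 and 70927 to 97756 in V1. The leukocyte sum was 5615 to 26278 units in V3, 9095 to 41031 in V2 and 22258 to 60778 in V1. None of the marker probes tested passed in any fraction. Over 3 muscle probes the sum was 1934 to 12346 units in C1 and 5970 to 13001 in V0. Between these ends it was 1559 to 39643 units in V3, 1558.5 to 13866 in V2 and 1611 to 6363 in V1. The highest muscle sum was thus in V3. miR-133a (19 arrays detected) had a mean log2 signal of 10.51 in C1 and 13.03 in V0. miR-1 went the other way, with 10.08 in C1 and 8.996 in V0. miR-206 had 8.72 in C1 and 9.03 in V0. miR-1 and miR-206 were each detected on 4 arrays. Over 3 red cell probes the sum was 2395 to 7576 units in C1 and 12976 to 24646 in V0. The means in C1 and V0 were 10.47 and 12.36 for miR-451 (20 arrays) and 10.37 and 13.42 for miR-486 (16 arrays). miR-144 was detected on 0 arrays. The 2 endothelial probes, both arms of miR-126, were detected on all 20 arrays, with a sum of 4193 to 25711 units in C1 and 6900 to 48686 in V0. miR-145 belongs both to the stromal list and to the list of miRNAs that act against the pluripotent state. The part of these cells in the signal of the clusters was not tested.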

How the data were processed

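Per the study's methods, total RNA was hybridised to Illumina miRNA bead arrays and read on an iScan. The authors deposited a mean bead intensity for each probe, once as read and once quantile-normalized over the 20 arrays with background left in, and they deposited the detection p-value that their software gave. The sources used here do not state the build behind the array annotation, and the positions printed are those of RefSeq (GRCm38.p6), matched by miRNA name. For this report log2 of the normalized intensity entered limma 3.58.1 (lmFit, eBayes) under R 4.3.3, with a mean for each fraction or a line over steps 0 to 4 from C1 to V0. A probe was tested where 1 of the fractions compared had a detection p of at most 0.01 on its 4 arrays (for the line and the overall test, any fraction), and Benjamini-Hochberg adjustment ran over all probes tested. The fit was tested on simulated data. Every member is accounted for, and the value of every array is given for the 8 members tested. Replicate numbers only name arrays. Members, lists and tests were chosen with earlier results of these data known. Slide 4 holds C1 replicate 4 alone, which has no weight in a difference when slide is a fixed block. Figures were drawn with matplotlib 3.10.9. The number of arrays limits the precision. The study's RT-qPCR, cell line and human measurements were left out, apart from its statement on miR-302b.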

Additional observations from a re-analysis of the deposited data

Results flagged for a closer look

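In a group of 4 arrays, a value was taken as standing apart when its distance to the nearest other array exceeded Dixon's 95% critical share of the whole range of the group. Of 105 groups of a member and a fraction, 16 (15.2%) held such an array, 15 of them above the others, against 17.3% of the groups of all probes. For normally distributed values chance alone would give about 1 in 20, and the distribution of these values was not tested.

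The highest were miR-302a* on C1 replicate 1 (14.37, others 9.13 to 9.14), miR-290-3p on V0 replicate 1 (14.12, others 8.66 to 8.73), miR-292-5p on C1 replicate 3 (13.27, others 9.02 to 9.18) and miR-302b* on V0 replicate 4 (12.62, others 8.86 to 9.02). miR-291b-5p stood at 12.53 on C1 replicate 4 (others 9.42 to 9.75) and at 11.10 on V1 replicate 1 (others 9.05 to 9.23). miR-290-3p also stood apart on V2 replicate 3 (11.82) and on V3 replicate 2 (10.91), and miR-294* on V1 replicate 1 (11.89). On V3 replicate 3, miR-292-5p read 11.06 and miR-291b-3p 10.53 above the other arrays, and miR-302a read 9.13, below them (9.63 to 9.68). miR-291b-3p read 9.99 on V2 replicate 3. On V2 replicate 4, miR-302d read 10.36 and miR-291a-5p 10.06. miR-302b* on V1 replicate 3 read 9.08 without detection, against 8.87 to 8.90 on the others.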

How the results depend on the processing

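The count of members past the threshold stayed at 0 in most settings. It was 1 in V1 without V3 replicate 4 (range 0 to 1 over arrays left out in turn), 1 in V1 and 1 in V2 with both V3 replicate 4 and C1 replicate 4 left out, 5 in V3 on slide 3 alone, and 1 on the line over the axis without V0 replicate 1 (range 0 to 1). The last is miR-291b-3p, which enters that test only because the V0 array that did not detect it is the one removed, so it is not evidence of a trend. Slide 3 alone and the setting without both V3 replicate 4 and C1 replicate 4 were not planned beforehand. Over the whole array, 2 probes passed in V0, 2 in V1, 2 in V2, 1 in V3, 0 on the line and 1 in the overall test. Other settings gave 0 to 12 in V0, V1 and V2, 0 to 76 in V3, 0 to 25 on the line and 0 to 5 in the overall test, and leaving out single arrays gave 1 to 13 calls in V0, 1 to 26 in V1, 1 to 4 in V2, 0 to 10 in V3 and 0 to 35 on the line. Detected pairs of a member and an array numbered 211, 250 with a detection p of at most 0.05 and 204 in the table before normalization. No paired analysis was possible because the sources used here do not say which arrays share a mouse.

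Of 357 values of the 27 log2 differences under settings other than leaving out 1 array, 51 turned their sign, 22 of them with no normalization. With no normalization the differences from C1 were, in V0, 0.63 for miR-291a-3p, 0.98 for miR-293, 1.32 for miR-293*, 0.14 for miR-295*, 0.46 for miR-302b, 0.32 for miR-302c and 0.77 for miR-302d. In V1 they were 0.52 (miR-291a-3p), 0.69 (miR-293), 0.38 (miR-293*), 0.33 (miR-302b), 0.73 (miR-302c) and 0.54 (miR-302d), in V2 0.53 (miR-291a-3p), 0.70 (miR-293), 0.91 (miR-293*), 0.43 (miR-295*), 0.12 (miR-302b) and 0.16 (miR-302c), and in V3 0.19 (miR-293), 0.074 (miR-302b) and 0.31 (miR-302c). By construction this setting keeps the difference in overall signal between arrays. With arrays centred on their median, miR-293* turned to 0.27 in V0 and 0.020 in V2, and miR-302a to -0.20 in V0. For the remaining settings the cause was not tested. On slide 2 alone miR-293* was 0.22 in V0, 0.66 in V2 and 0.63 in V3, miR-302d 0.18 in V0 and 0.14 in V1, miR-302c 0.50 in V1 and 1.05 in V3, miR-295* 0.36 in V2 and 0.95 in V3, miR-293 1.0 in V3 and miR-302b 0.58 in V3. With array depth (detected probes) in the fit as a covariate, miR-293 was 0.38, 0.23, 0.27 and 0.26 in V0, V1, V2 and V3, miR-293* 0.89, 0.18 and 0.58 in V0, V1 and V2, miR-295* 0.29 in V2, and miR-302c 0.051 in V1 and 0.0097 in V3. With slide as a fixed block miR-302c was 0.12 in V3 and miR-302d 0.095 in V0. Without V3 replicate 4 and C1 replicate 4, miR-293* was 0.16 and miR-302a -0.14 in V0. On slide 3 alone miR-291a-3p was -1.15 in V3. Over single arrays left out, the range was -0.87 to 0.16 for miR-293* and -0.14 to 0.30 for miR-302a in V0, and in V3 -0.41 to 0.80 for miR-291a-3p, -0.80 to 0.18 for miR-293, -0.94 to 0.10 for miR-302b and -1.0 to 0.17 for miR-302c. Detection limits the tests, since 13 of 21 members were not detected on all 4 arrays of any fraction.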
